A study of Homo sapiens with 4 samples.

Results

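Aminoacyl‐tRNA synthetases are the enzymes that join each amino acid to its own tRNA, and so they set which amino acid is placed at each codon. Human cells make most of them as separate cytosolic and mitochondrial enzymes from different nuclear genes. The 35 genes described here were chosen by name, 19 of them cytosolic and 16 mitochondrial (symbols ending in 2). Of these, 32 had an array probe set that names no other gene, 17 of them cytosolic and 15 mitochondrial. All 32 were among the 10505 genes bright enough to be used, so the filter on low signals removed none of them. The probe sets of MARS1, QARS1 and TARS2, the methionyl, glutaminyl and mitochondrial threonyl enzymes, also list a microRNA gene, and no value is given for them by name.

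The cells were RCM‐1, a line from a well‐differentiated human rectal cancer, and the compound was MTA, methylthioacetic acid, at 1 mM. There were 4 Affymetrix arrays of total RNA, 1 for each of 0, 6, 12 and 18 h under MTA. The 0 h array came from control cells, whose vehicle was 0.1% acetonitrile, and cells of the other arrays were put back into vehicle medium after MTA and kept for up to 24 h from its addition. A longer time under MTA therefore came with a shorter time without it, and the effects of both on a signal cannot be told apart. As 1 line was used with 1 array per time, there is no replicate error, no test was possible and no p‐value is given.

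Signals are the deposited MAS5 intensities on a linear scale, and each change is the log2 ratio of a gene's signal to its signal at 0 h. Over the 10505 genes the median of these ratios was 0.11, −0.28 and −0.47 for 6, 12 and 18 h. The mean of the 12 probe sets of added poly‐A control RNA was 0.20, 0.03 and −0.25, and that of the 9 hybridization controls was 0.02, −0.27 and −0.05. How much of the lower median at 18 h lies in the cells and how much in the scaling cannot be told apart, nor can less RNA per cell and fewer cells that express a gene. Ratios are thus also given relative to the median of all genes, which does not change when an array is multiplied by a constant. The ratio of 3′ to 5′ GAPDH probe sets, a sign of RNA quality, was 1.64, 1.44, 1.53 and 1.63 on the 4 arrays, and that of ACTB 5.76, 4.76, 5.86 and 6.45, highest at 18 h. Their part in the ratios was not tested. All 9 epithelial markers passed the filter, including CDX2 (signal 55.9 at 0 h), KRT8 (11431), CDH17 (3016) and VIL1 (2389). None of 5 fibroblast and muscle markers passed it, with a summed signal of 57.7 at 0 h and 85.7 at 18 h. In that list ACTA2, smooth muscle actin, went from 14.2 to 35.2 and DCN from 23.5 to 28.5. Of 5 measured blood and endothelial markers 2 passed, HBB at 49.0 and PECAM1 at 41.1, while PTPRC, the pan‐leukocyte marker, was at 7.90; their summed signal was 120 at 0 h and 93.3 at 18 h. As the nearest measure of error, the log2 ratios at 18 h of the 2 brightest probe sets of a gene differed with an SD of 0.479 (n = 4676 genes).

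Many cytosolic synthetase genes are known to be switched on by ATF4, the transcription factor of the amino acid response, which binds sites of the form TGATGNAA together with a C/EBP partner. Promoter sequences (RefSeq, GRCh38.p14, 250 bases before to 50 after the start site) were at hand for 30 of the 35 genes, and not for LARS1, VARS1, YARS1, AARS2 and VARS2. On either strand, TGATGNAA stood in a promoter of 1217 of 27305 genes (4.46%) and of 8 of 30 synthetase genes (26.7%). These were 7 of 16 cytosolic genes (43.8%) and 1 of 14 mitochondrial ones (7.14%), YARS2. The 7 cytosolic genes were all among 10 genes listed from general knowledge as responsive to amino acid shortage (70.0%). None of the other 6 cytosolic genes with a promoter held the letters. The list was chosen with earlier results of these data known. Nor is it independent of the letters, as ATF4 binds sites of this form. A match is a description of the sequence and not a known site. The windows below are shown because cytosolic genes with and without these letters had different median log2 ratios at 18 h, although their ranges overlapped. MARS1 has a window but no ratio. The matching letters, on either strand, are in capitals, and each window reads 5′ to 3′ in the direction of the gene. The match begins within 14 bases of a start site in CARS1, MARS1, IARS1, TARS1 and NARS1, 33 bases before it in GARS1 and 187 before it in AARS1.

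CARS1: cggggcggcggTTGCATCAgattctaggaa
MARS1: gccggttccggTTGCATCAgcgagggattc
IARS1: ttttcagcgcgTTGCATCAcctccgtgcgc
TARS1: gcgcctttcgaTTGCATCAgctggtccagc
NARS1: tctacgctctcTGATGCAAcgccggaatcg
GARS1: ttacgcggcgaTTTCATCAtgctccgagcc
AARS1: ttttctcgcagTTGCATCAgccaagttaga

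The windows lie at chr11:3057407-3057436 (CARS1, minus strand), chr12:57488053-57488082 (MARS1, plus strand), chr9:92293692-92293721 (IARS1, minus strand), chr5:33440956-33440985 (TARS1, plus strand), chr18:57621804-57621833 (NARS1, minus strand), chr7:30594834-30594863 (GARS1, plus strand) and chr16:70289675-70289704 (AARS1, minus strand). In 5 of them the letters read TTGCATCA, in NARS1 they read TGATGCAA, which is the same 8 bases on the other strand, and in GARS1 TTTCATCA.

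At 18 h the 6 measured cytosolic genes with the letters had log2 ratios from −0.56 to 0.19, with a median of −0.36, and none was below −1. The 8 without them ran from −1.58 to −0.25, with a median of −1.17. Of these, 5 were below −1, a level that 15.8% of all genes were below. With the letters, 5 of 6 genes were above the median of all genes, and without them 2 of 8, SARS1 and EPRS1. The 2 ranges overlapped between −0.56 and −0.25, where both SARS1 and EPRS1 lay. YARS2, the mitochondrial gene whose promoter holds the letters (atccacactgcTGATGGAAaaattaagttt, chr12:32756076-32756105, minus strand, match 197 bases before the start site), was at −1.07, below all 6 cytosolic genes that hold them.

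At 18 h the cytosolic genes not listed as amino acid responsive had a lower median than the listed ones. That list was chosen with earlier results of these data known. The difference of the medians was −0.83 with the deposited scaling and lay between −0.84 and −0.46 over the alternatives. Scaling an array by a constant and changing the filter could not move this difference, so only the other alternatives bear on it. It was −0.17 at 6 h and −0.45 at 12 h. The 10 measured listed genes had a median of −0.37, or 0.10 relative to the median of all genes, and 7 of 10 were above that median. The 7 others had a median of −1.20, or −0.73 relative to all genes. Of these, 6 of 7 were below the median of all genes, all but LARS1 by its brightest probe set. With the mean over all probe sets, dim ones included, the median of the 7 relative to all genes was −0.44. Below −1 were 4 of these 7 and 1 of the 10 listed genes, WARS1, beside 15.8% of all genes. With the median ratio of the kept probe sets set to 0, 1 of 17 cytosolic genes, FARSA, was below −1, beside 3.74% of all genes. The plot of the groups at 18 h shows these values.

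**Figure D1:**
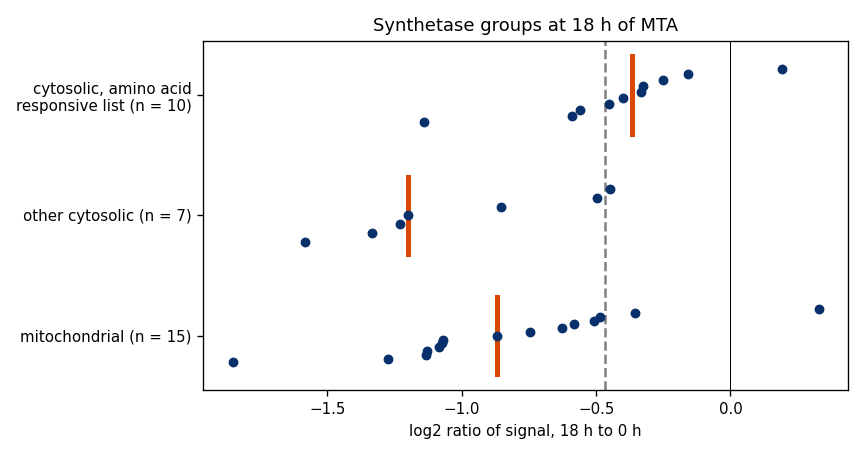
The horizontal axis is the log2 ratio of the signal at 18 h to that at 0 h. Each point is 1 gene, the orange bar is the median of its group, the dashed line is the median of all genes (−0.47) and the solid line is no change. The 10 listed genes have a median of −0.37, the 7 other cytosolic genes of −1.20 and the 15 mitochondrial genes of −0.87.

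The lowest cytosolic genes at 18 h were both subunits of phenylalanyl‐tRNA synthetase, the only cytosolic synthetase built of 2 different chains. FARSA, the alpha chain, had signals of 382, 277, 195 and 128 at 0, 6, 12 and 18 h. FARSB, the beta chain, had 1495, 1254, 942 and 593. Both signals were lower on each successive array. Their log2 ratios at 18 h were −1.58 and −1.33, so 0.334 and 0.396 of the 0 h signals remained, and FARSA stayed below −1 under all 6 scalings. The second kept probe sets of the genes gave −0.96 for FARSA and −1.54 for FARSB, so that their order turns with the probe set. Another probe set of FARSB was dim, with 0.882, 16.2, 0.846 and 8.88, and was left out.

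HARS1 encodes the cytosolic histidyl enzyme. Its signals were 841, 663, 398 and 358, lower on each successive array, and its ratio at 18 h was −1.23. RARS1, the arginyl enzyme of the multisynthetase complex, had 1546, 2045, 821 and 672. Its log2 ratios were 0.40, −0.91 and −1.20, the highest of all 32 at 6 h and among the lowest 6 at 18 h. Most of the difference of RARS1 lay between the 6 h and 12 h arrays, whereas HARS1 was already lower at 6 h. WARS1, the tryptophanyl enzyme, had 635, 583, 424 and 288. Its ratio at 18 h was −1.14 by the brightest probe set and −0.89 by the second, both below the median of all genes.

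At the other end, CARS1, the cysteinyl enzyme, had signals of 1213, 1344, 1481 and 1387. Its ratio at 18 h was 0.19, and 0.66 relative to all genes, which placed it at the 84.8th percentile. The other 2 kept probe sets of CARS1 gave 0.40 and −0.09. CARS1 was above 0 under all 6 scalings of the arrays, the only cytosolic gene of which this held. GARS1, the glycyl enzyme, which also serves mitochondria, had 1473, 1524, 1475 and 1320, a ratio of −0.16. SARS1, the seryl enzyme, had 1290, 1229, 1114 and 1083, a ratio of −0.25. GARS1 and SARS1 thus stayed within a narrow range of signals, and both were higher than 0 h under scalings that set the median of all genes near 0.

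**Figure D2:**
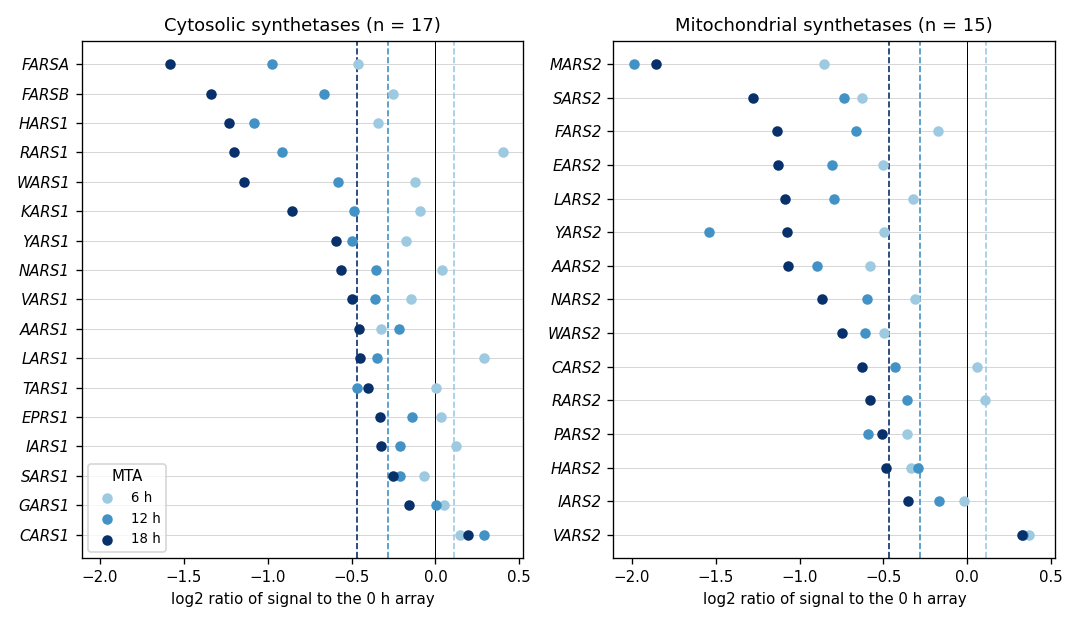
Each row is 1 synthetase gene and each point its log2 ratio to the 0 h array at 6, 12 or 18 h (light to dark); the dashed lines in the same colours are the medians of all genes (0.11, −0.28 and −0.47) and the black line is no change. FARSA (−1.58) and MARS2 (−1.85) are lowest at 18 h in their classes, and CARS1 (0.19) and VARS2 (0.33) are highest.

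The remaining cytosolic genes lay between −0.85 and −0.33 at 18 h. KARS1, the lysyl enzyme, whose gene also makes the mitochondrial form, was the brightest synthetase probe set with 8657, 8113, 6185 and 4795. Both of its probe sets gave −0.85. VARS1, the valyl enzyme, had 613, 553, 478 and 434. Its brightest probe set gave −0.50 and a dimmer one, from 77.2 at 0 h to 37.3 at 18 h, gave −1.05. The difference is larger than the SD between probe sets, and the 2 values lie on either side of −1. YARS1 had 658, 582, 465 and 437. The tyrosyl (YARS1, −0.59), asparaginyl (NARS1, −0.56), alanyl (AARS1, −0.45), leucyl (LARS1, −0.45), threonyl (TARS1, −0.40), glutamyl‐prolyl (EPRS1, −0.33) and isoleucyl (IARS1, −0.33) genes were between −0.12 and 0.14 relative to the median of all genes. The other kept probe sets of LARS1 gave −0.63, −0.52 and −0.68, below that median. At 6 h they gave −0.06, −0.27 and −0.71, against 0.29 for the brightest. Of the genes in this paragraph, VARS1, AARS1, LARS1, NARS1, TARS1, EPRS1 and IARS1 turn positive under at least 1 other scaling. TARS1 had signals of 2175, 2184, 1575 and 1648, and a dim second probe set of it (23.6 at 0 h, 5.27 at 18 h) was not kept.

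Several cytosolic synthetases are held in 1 particle, the multisynthetase complex, by the scaffold proteins AIMP1, AIMP2 and EEF1E1. The 5 measured enzymes of the complex (EPRS1, IARS1, KARS1, LARS1 and RARS1) had medians of 0.12, −0.35 and −0.45 at 6, 12 and 18 h. The medians at 12 and 18 h are the values of LARS1, whose other kept probe sets were lower. The 12 cytosolic genes outside the complex had medians of −0.13, −0.41 and −0.53. At 18 h these were 0.02 and −0.06 relative to all genes, and 1 of 5 and 4 of 12 genes were below −1, beside 15.8% of all genes. AIMP1, the only scaffold with a probe set of its own, had 1739, 1444, 845 and 728, a ratio of −1.26 at 18 h. Among the enzymes measured in the complex, RARS1, which binds AIMP1 in the particle, had a ratio close to that of AIMP1 at 12 h (−0.91 and −1.04) and 18 h (−1.20 and −1.26). At 6 h they differed, with 0.40 for RARS1 and −0.27 for AIMP1.

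The mitochondrial genes had a lower median than all genes at each time, under every alternative tried. Scalings by a constant could not change this. Their medians at 6, 12 and 18 h were −0.34, −0.61 and −0.87, or −0.45, −0.33 and −0.40 relative to all genes. At 6 h, 14 of 15 were lower than the median of all genes, all but VARS2. At 18 h, 13 of 15 were, all but VARS2 and IARS2. The 17 cytosolic genes had medians of −0.07, −0.36 and −0.50, or −0.18, −0.08 and −0.03 relative to all genes. The cytosolic value at 18 h turned positive with quantile normalization and with a stricter filter, while the mitochondrial one lay between −0.54 and −0.048 over the alternatives.

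No synthetase was below −1 at 6 h, when 0.476% of all genes were. Below 0 at 6 h were 21 of 32 members, 9 cytosolic and 12 mitochondrial, beside 37.7% of all genes. At 12 h, 3 of 32 were below −1 (HARS1, MARS2 and YARS2), beside 6.29% of all genes. At 18 h, 5 of 17 cytosolic and 7 of 15 mitochondrial genes were below −1. These counts stand beside 15.8% of all genes and depend on the scaling. With the median ratio of the kept probe sets set to 0, they were 1 cytosolic and 1 mitochondrial gene beside 3.74% of all genes. Below −1.5 at 18 h, the threshold of the study, were FARSA and MARS2, beside 3.19% of all genes. No synthetase was above 1 at 18 h, where 3.15% of all genes were. The signal was lower on each successive array for 16 of 32 members, 8 in each class, beside 27.5% of all genes.

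MARS2, the mitochondrial methionyl enzyme, was the lowest synthetase at each time. Its signals were 236, 130, 59.4 and 65.2, and its log2 ratios −0.85, −1.99 and −1.85. It was in the lowest 0.961% of all genes at both 6 h and 18 h and stayed below −1 at 18 h under all 6 scalings. MARS2 has 1 probe set, so no second one could be set beside it. YARS2, the mitochondrial tyrosyl enzyme, had a similar course, with 268, 190, 92.1 and 127. Its ratio was −1.54 at 12 h and −1.07 at 18 h. In both genes the 12 h array was the lowest of the 4.

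**Figure D3:**
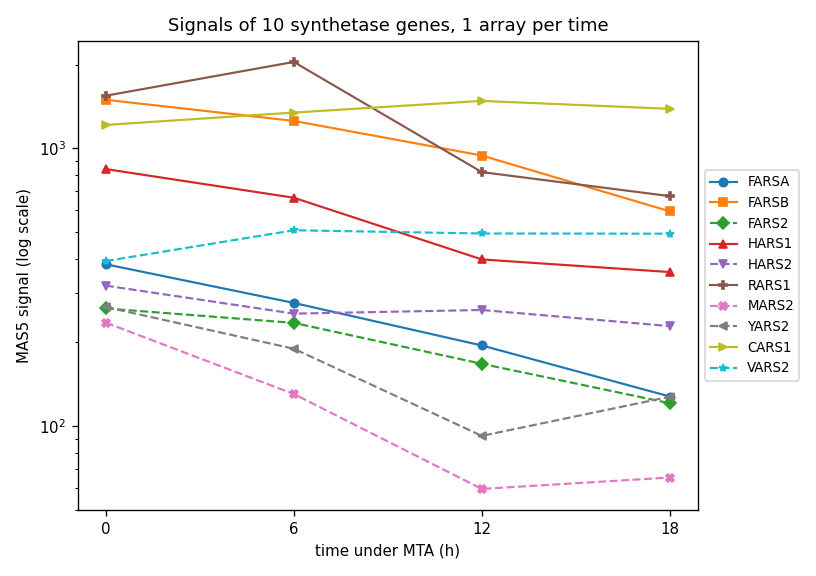
MAS5 signals on a log scale against hours under MTA for 10 synthetase genes, cytosolic with solid and mitochondrial with dashed lines; each point is 1 array. MARS2 goes from 236 to 65.2 and FARSA from 382 to 128, RARS1 is highest at 6 h (2045), and CARS1 and VARS2 end above their 0 h signals.

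SARS2, the mitochondrial seryl enzyme, had 125, 81.1, 75.2 and 51.8, a ratio of −1.27. FARS2, the single chain that serves phenylalanine in mitochondria, had 265, 235, 167 and 121. Its 2 probe sets gave −1.13 and −1.06. LARS2, the leucyl enzyme, was at −1.09 by its brightest probe set and at −0.80 by the second, on either side of −1. AARS2, the alanyl enzyme, went from 101 at 0 h to 67.6, 54.4 and 48.1, a ratio of −1.07. These 4 genes were lower on each successive array. EARS2, which puts glutamate on its own tRNA and, as a step before amidation, on the glutamine tRNA, had 270, 191, 155 and 124, a ratio of −1.13. Its other kept probe sets gave −0.27 and −1.30, so 1 of 3 differs by more than the SD between probe sets.

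The remaining mitochondrial genes had ratios above −1 at 18 h. NARS2 (asparagine) was at −0.87, WARS2 (tryptophan; 206, 146, 135 and 123) at −0.75 and PARS2 (proline) at −0.51. CARS2, the cysteinyl enzyme, had 797, 830, 590 and 516, a ratio of −0.63. RARS2, the arginyl enzyme, had 597, 641, 466 and 399, a ratio of −0.58. By their brightest probe sets both were higher at 6 h than at 0 h with the deposited scaling and lower afterwards. The second kept probe set of RARS2 gave −0.26 at 6 h and −0.30 at 18 h, the latter above the median of all genes. HARS2, the histidyl enzyme, had 320, 254, 262 and 229, a ratio of −0.48. IARS2, the isoleucyl enzyme and the brightest mitochondrial probe set, had 1712, 1689, 1525 and 1338, a ratio of −0.36. HARS2 and IARS2 were on either side of the median of all genes, at the 48.8th and 58.0th percentile. VARS2, the valyl enzyme, had 392, 507, 493 and 493. With the deposited scaling it was the only mitochondrial gene above 0 at 12 and 18 h, with log2 ratios of 0.37, 0.33 and 0.33, and it was above 0 at 18 h under all 6 scalings.

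The letters CACGTG, the E‐box bound by MYC and by USF and TFE factors, stood in a promoter of 2396 of 27305 genes (8.77%). Among synthetases they stood in 4 of 30 genes (13.3%), IARS1, CARS2, EARS2 and MARS2. The 3 mitochondrial ones had ratios at 18 h of −0.63, −1.13 and −1.85. The 10 mitochondrial genes with a promoter and without the letters had a median of −0.81, from −1.27 to −0.36, so the ranges overlapped. The windows of MARS2 and EARS2 are shown as those of the lowest mitochondrial gene and of a gene with discordant probe sets, with CACGTG in capitals, at chr2:197705346-197705375 (plus strand) and chr16:23557348-23557377 (minus strand).

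MARS2: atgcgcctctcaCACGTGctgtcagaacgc
EARS2: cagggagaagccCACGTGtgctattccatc

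For 11 amino acids, 1 cytosolic and 1 mitochondrial gene were both measured. The mitochondrial ratio at 18 h was the lower one in 7 of them and the higher one in 4, with a median difference of −0.31. Where the mitochondrial gene was the lower one, the difference was −1.02 for serine (SARS2 minus SARS1), −0.82 for cysteine, −0.64 for leucine, −0.62 for alanine, −0.48 for tyrosine and −0.31 for asparagine. For isoleucine it was −0.03, well within the SD between probe sets of 1 gene (0.479). In the other direction it reached like sizes, 0.83 for valine, 0.75 for histidine, 0.62 for arginine and 0.39 for tryptophan. The difference was larger in size than that SD for 8 of the 11 amino acids, for tyrosine only just. Asparagine and tryptophan, like isoleucine, were within it. EARS2 and PARS2 share the cytosolic partner EPRS1, with differences of −0.80 and −0.18, and FARS2 was 0.45 and 0.20 above FARSA and FARSB. Differences within a pair do not depend on the scaling by a constant.

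**Figure D4:**
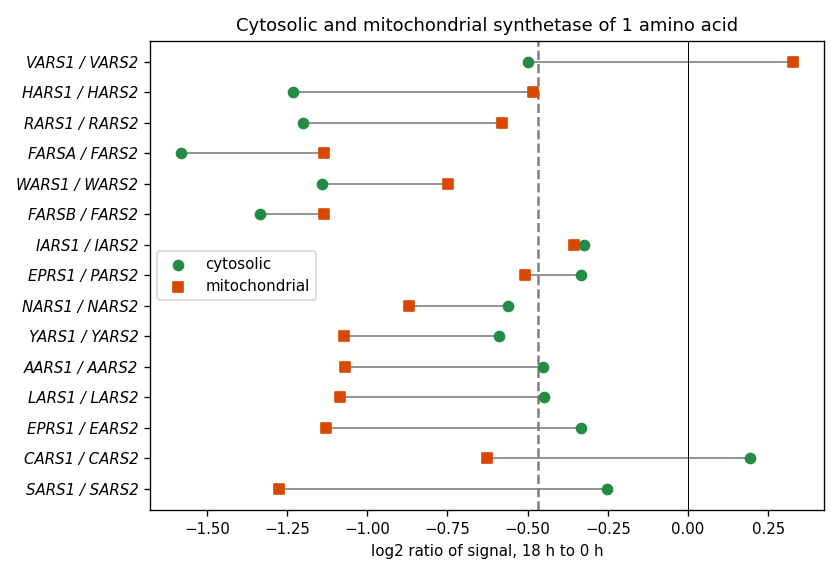
The log2 ratio at 18 h of the cytosolic (circles) and mitochondrial (squares) synthetase for the same amino acid, joined by a line and sorted by their difference, with the median of all genes (−0.47) as the dashed line. The difference runs from −1.02 for SARS1 and SARS2 to 0.83 for VARS1 and VARS2.

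HARS1 and HARS2 lie head to head on chromosome 5, with 84 bases between their start sites (chr5:140691371-140691454, GRCh38.p14, plus strand, GC content 59.5%). The stretch is shown because both genes start from it in opposite directions while their ratios at 18 h were 0.75 apart, −1.23 for HARS1 and −0.48 for HARS2.

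HARS1 and HARS2, between: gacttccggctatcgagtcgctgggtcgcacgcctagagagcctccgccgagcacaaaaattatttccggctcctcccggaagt

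It holds neither TGATGNAA nor CACGTG. The signals of both genes were lower at 6 h (663 of 841 for HARS1 and 254 of 320 for HARS2), and they parted at 12 h, when HARS1 was at 398 and HARS2 at 262. KARS1 and TERF2IP, FARS2 and LYRM4, RARS2 and ORC3, SARS2 and MRPS12, and WARS1 and WDR25 also start head to head, with 56 to 190 bases between start sites.

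The 2 classes differed in brightness. The median signal at 0 h was 1290 for the cytosolic and 270 for the mitochondrial probe sets, and signals of different probe sets are not amounts of RNA that can be compared. All genes with a mean signal below 128 had a median ratio at 18 h of −0.22, against −0.51, −0.59 and −0.52 in the bands of 128 to 512, 512 to 2048 and above 2048. The 4 synthetases below 128 (AARS2, MARS2, PARS2 and SARS2), all mitochondrial, had a median of −1.17. Between 128 and 512, 8 mitochondrial genes had −0.97 and 2 cytosolic ones, FARSA and WARS1, had −1.36. Between 512 and 2048, 12 cytosolic genes had −0.45 and 3 mitochondrial ones, CARS2, IARS2 and RARS2, had −0.58. In the band of 512 to 2048, which holds 3 or more genes of both classes, the mitochondrial median was 0.0091 above that of all genes of like brightness and the cytosolic one 0.14 above it. Below 128 and between 128 and 512 the mitochondrial medians were −0.96 and −0.46 relative to genes of like brightness. The part of brightness in the difference between the classes was not tested.

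**Figure D5:**
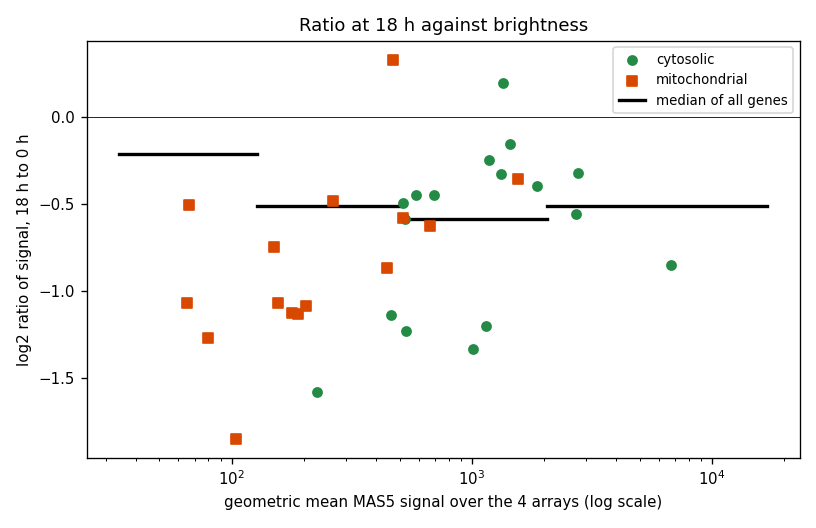
The log2 ratio at 18 h against the mean signal over the 4 arrays (geometric mean, log scale); circles are cytosolic and squares mitochondrial synthetases, and black bars are the medians of all genes in 4 bands of signal. Of the 14 members below 512, 12 are mitochondrial, and their ratios mostly lie under the bars, whereas those above 512 lie on both sides.

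For 14 members, 2 or more probe sets passed the filter. The second brightest minus the brightest ratio at 18 h had an SD of 0.344 and a median size of 0.206, and ran from −0.55 to 0.85. It exceeded 0.5 in size for FARSA, VARS1 and EARS2. By structural class, which follows the fold of the catalytic domain, EPRS1, which joins an enzyme of each, left out, the 16 class I genes had a median of −0.61 and the 15 class II genes −0.85 at 18 h. Each had 6 genes below −1 with the deposited scaling, beside 15.8% of all genes. With median centring, 2 of all 32 synthetases were.

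Genes that work beside the mitochondrial enzymes were described by a list of 6, which form the amidotransferase that corrects the glutamine tRNA, formylate the initiator methionine, or deliver charged tRNA to the ribosome. Below the median of all genes were 6 of 6 at 6 h, 4 of 6 at 12 h and 6 of 6 at 18 h. Relative to all genes their median was −0.34, −0.11 and −0.40, and the median ratio at 18 h was −0.86. TSFM, the exchange factor of the mitochondrial elongation factor, had 642, 525, 451 and 254, a ratio of −1.34. QRSL1, the catalytic subunit of the amidotransferase that acts after EARS2, had 191, 113, 92.9 and 77.7, a ratio of −1.30. These 2 of 6 were the ones below −1, beside 15.8% of all genes. MTFMT, which formylates the methionine that MARS2 attaches, was at −0.92 and GATC, another amidotransferase subunit, at −0.80.

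In the cytosol, the exporter of tRNA XPOT was at −0.58 and the elongation factors EEF1A1 and EEF1D at −0.41 and −0.46, or −0.11, 0.055 and 0.0070 relative to all genes. Of 5 genes for proofreading or for selenocysteine, 4 were measured, with a median of −0.47. DTD2 (−0.85) and PSTK (−0.61) were lower and DTD1 (−0.06) and SEPSECS (−0.34) higher than the median of all genes.

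The wider amino acid response was read from a list of 23 genes other than synthetases, of which 21 passed the filter. Their median was −0.10, −0.05 and −0.21 at 6, 12 and 18 h, or −0.21, 0.23 and 0.26 relative to all genes. The listed cytosolic synthetases had 0.02, −0.22 and −0.37, or −0.091, 0.065 and 0.10 relative to all genes. ASNS, asparagine synthetase, had 845, 899, 1165 and 1412, a ratio of 0.74 at 18 h and higher on each array. VLDLR, with 39.0, 116, 92.0 and 90.2, was at 1.21, the only kept gene of the list above 1, beside 3.15% of all genes. SESN2, with 61.2, 99.0, 83.5 and 80.3, was at 0.39. NUPR1 was dim throughout, at 1.32, 15.1, 10.9 and 9.19, and was not kept. Below −1 were 3 of the 21 kept genes, beside 15.8% of all genes. These were TRIB3 (−1.20), CEBPG (−1.07) and, at the margin, SLC7A5, whose signal went from 1264 to 630. The list therefore held genes on both sides, and ATF4 itself had 3747, 3097, 3898 and 3312, a ratio of −0.18 at 18 h.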

How the data were processed

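The authors deposited MAS5 signal intensities from Affymetrix Expression Console, 1 linear value per probe set and array. Its version and target intensity: not given in the sources used here. RNA was labelled with biotin by in vitro transcription. Control probe sets (62) were left out. Probe sets were named by GEO's platform annotation with symbols updated through RefSeq (GRCh38.p14), and a gene was read from its brightest probe set with 1 symbol. Probe sets were ranked by mean log2 signal and the brightest kept, to the number that the study counts as detected (lowest mean signal 34.0). Log2 ratios to 0 h were taken with no pseudocount, and −1 and −1.5 served as thresholds. There was 1 array per time, so no test was made, and the spread between probe sets of a gene is the nearest measure of error.

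The synthetase genes and all lists were chosen with earlier results of these data known. Full signals are given for the 6 lowest and 4 highest synthetases at 18 h, the 3 lowest and 3 highest mitochondrial ones, and those with a second probe set that differs by over 0.5 or with a probe set below the filter; of other lists, up to 4 genes with the largest change relative to all genes are named, with further genes added after their values were seen. The scripts were tested on simulated data and run with Python 3.11.15, NumPy 2.4.6, pandas 2.3.3 and matplotlib 3.10.9. Alternatives were other scalings, a pseudocount, other probe sets, other filters, other thresholds and other class definitions. Reading synthetases also from probe sets with several symbols was added after seeing the data.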

Additional observations from a re-analysis of the deposited data

How the results depend on the processing

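The 18 h median of the cytosolic genes relative to all genes (−0.03) became 0.077 with quantile normalization and 0.058 with the stricter filter of the 10000 brightest probe sets, and −0.15 with the mean over all probe sets, −0.25 without probe sets that can bind several transcripts (IDs ending in _s_at or _x_at) and −0.17 without a filter. The mitochondrial one (−0.45, −0.33 and −0.40 at 6, 12 and 18 h) became −0.16, −0.065 and −0.048 with the stricter filter, which leaves 8 genes, and at 18 h −0.17 with the mean over all probe sets and −0.54 without a filter. The cytosolic count below −1 (5) became 1 with median centring, quantile normalization or the trimmed mean, 2 with poly‐A controls, 1 at −1.5 and 8 at −0.5. The mitochondrial count (7) became 1, 1, 1 and 2 with the same scalings, 4 with the mean over all probe sets, 2 with the stricter filter, 1 at −1.5 and 12 at −0.5. Mitochondrial minus cytosolic at 18 h (−0.37) became −0.016, −0.16 and −0.11 with all probe sets, without those that can bind several transcripts and with the stricter filter. The listed responsive genes went to −0.042 relative to all genes without a filter, and the cytosolic median log2 ratio to 0.087 with quantile normalization and 0.018 with the trimmed mean. FARSB went to 0.15 and 3.33 where its dim probe set entered. The cause was not tested, except that the stricter filter leaves fewer genes and scalings by a constant move all ratios alike. Of all values recomputed, 442 moved by less than a set limit or stayed within 1.5 times a count, and 98 moved further. A further 7, all given above, turned from a called or group value to the other sign. The limit was the SD between probe sets, for a median divided by the root of its number of genes. It holds no error between cultures or arrays and takes genes as independent, so it does not measure the uncertainty of a median. Many of the 442 could not move. Constant scalings leave medians relative to all genes unchanged, and the filters leave the ratio of a single gene unchanged. Among single synthetases at 18 h, 17 of 32 were below 0 and 2, CARS1 and VARS2, above 0 under all 6 scalings; reading the 3 unnamed synthetases from probe sets with several symbols left both counts below −1 at 5 and 7. No array could be left out. No paired analysis was possible because each time has 1 array. Dim probe sets limit AARS2, MARS2, PARS2 and SARS2 most.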
